A study of Mus musculus with 3 samples.

Results

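The homozygous-only regions are stretches of the genome where a peak of H3K27ac, acetylation of lysine 27 of histone H3, was called in the Arid1a homozygous knockout library of MIN6 cells and no wild-type or heterozygous peak lay within 1 kb. They were selected by the presence and absence of peaks in the 3 deposited mm10 peak lists: overlapping or touching peaks were merged, and 5126 of 52938 merged regions met the rule, a share of 9.68%. These peak calls chose the regions, so counts of peaks by library are given as a description, with no test.

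MIN6 cells were derived from a mouse insulinoma and are a common model of the beta cell. According to the labels, cells with a stable Cas9 lentivirus received a lentiviral guide RNA against Arid1a, and single cells were grown into clones. PCR genotyping and Western blotting for ARID1A sorted the clones into wild type, heterozygous knockout and homozygous knockout, so that all 3 groups come from cells taken through Cas9 and clone selection, as far as the labels say. The peak names of the wild-type list carry a tag, GAL4, that the labels do not explain, so the origin of the wild-type group, and with it what each comparison with it means, is uncertain beyond its label. Each genotype had 1 library, with no replicate, so no difference below carries a p-value, and a difference between genotypes cannot be told apart from a difference between clones. The peak lists do not read the edit itself, and the genotype rests on the labels. Of 28 beta cell marker genes, 27 had an acetylated region in each library, Ins1 with 4, 4 and 4 and Ins2 with 2, 4 and 3 regions in the wild-type, heterozygous and homozygous lists. Acinar markers had a region at 0, 1 and 0 of 6 genes, delta, PP and epsilon markers at 3, 3 and 0 of 5, alpha cell markers at 4, 4 and 3 of 6, duct and keratin markers at 5, 6 and 5 of 9, immune and endothelial markers at 5, 4 and 2 of 7, mesenchymal markers at 6, 4 and 5 of 8, and neuronal markers at 6, 6 and 6 of 6. Beta cell markers were thus marked alike in the 3 libraries, while some markers of other cells were also acetylated and differed between them.

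H3K27ac is laid down by the acetyltransferases p300 and CBP at active promoters and enhancers. ARID1A is a DNA-binding subunit of the canonical BAF form of SWI/SNF, a complex that moves or evicts nucleosomes and keeps many enhancers open. ARID1B can take its place in the complex. The series asks how loss of Arid1a relates to beta cell regeneration and to EGF signalling.

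The guide that made the clones is shown first because it defines the groups, with its 20-base target in lower case and the 3-base PAM in capitals, as the labels give it.
Arid1a guide: gctgctgctgatacgaaggtTGG

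Most homozygous-only regions lay away from gene starts. The few that overlapped a promoter window, by at least 1 base, are shown by 7 examples, each 250 bases before to 50 bases after a start in RefSeq on GRCm38.p6, the assembly of mm10. Whole windows are printed, though some regions took in only an end of the window. The region at Gcg ended at chr2:62483621, and that at Scel began at chr14:103513360. In the first 4, capitals mark every CG dinucleotide. Pld1 (chr3:27938430-27938729, plus strand), which encodes phospholipase D1, and Oxtr (chr6:112489776-112490075, minus strand), which encodes the oxytocin receptor, hold 31 and 20 CG pairs. Bcl2l14 (chr6:134414178-134414477, plus strand), a BCL2 family gene, and Gcg (chr2:62483604-62483903, minus strand), the glucagon gene of alpha cells, hold 6 and 7, and were the more usual kind among these promoters.
Pld1: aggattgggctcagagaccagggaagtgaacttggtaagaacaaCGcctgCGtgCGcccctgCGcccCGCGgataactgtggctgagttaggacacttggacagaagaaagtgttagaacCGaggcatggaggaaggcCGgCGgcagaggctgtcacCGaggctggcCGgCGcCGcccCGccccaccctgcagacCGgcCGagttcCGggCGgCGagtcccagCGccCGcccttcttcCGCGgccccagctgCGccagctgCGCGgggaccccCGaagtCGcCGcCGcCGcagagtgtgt
Oxtr: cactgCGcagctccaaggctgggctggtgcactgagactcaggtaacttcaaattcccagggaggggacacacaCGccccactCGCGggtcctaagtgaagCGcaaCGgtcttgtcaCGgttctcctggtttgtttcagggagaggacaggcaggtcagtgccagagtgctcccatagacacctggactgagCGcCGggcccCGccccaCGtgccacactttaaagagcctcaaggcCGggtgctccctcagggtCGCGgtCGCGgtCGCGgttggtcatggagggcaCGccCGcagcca
Bcl2l14: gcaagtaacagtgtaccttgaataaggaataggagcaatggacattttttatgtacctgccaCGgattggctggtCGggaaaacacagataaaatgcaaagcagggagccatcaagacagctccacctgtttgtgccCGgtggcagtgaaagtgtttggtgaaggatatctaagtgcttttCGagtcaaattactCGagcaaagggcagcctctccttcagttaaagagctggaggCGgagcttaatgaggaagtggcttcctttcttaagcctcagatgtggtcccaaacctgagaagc
Gcg: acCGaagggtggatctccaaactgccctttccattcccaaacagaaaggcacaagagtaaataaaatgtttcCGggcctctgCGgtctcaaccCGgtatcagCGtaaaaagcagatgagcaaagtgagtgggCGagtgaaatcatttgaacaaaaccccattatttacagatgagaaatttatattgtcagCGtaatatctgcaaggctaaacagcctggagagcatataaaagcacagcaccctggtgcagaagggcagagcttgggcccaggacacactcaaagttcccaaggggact

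In the other three, capitals mark letters of the AP-1 motif TGANTCA or of the HNF1 half-site GTTAAT, read on either strand, because these short motifs are compared between promoter sets below. Serpina1b (chr12:103738140-103738439, minus strand) encodes an alpha-1 antitrypsin, Scel (chr14:103513091-103513390, plus strand) encodes sciellin of the cornified envelope, and Diras2 (chr13:52530787-52531086, minus strand) encodes a small GTPase of the Ras family. The marked AP-1 site of Serpina1b and the marked motifs of Scel lie outside the called regions.
Serpina1b: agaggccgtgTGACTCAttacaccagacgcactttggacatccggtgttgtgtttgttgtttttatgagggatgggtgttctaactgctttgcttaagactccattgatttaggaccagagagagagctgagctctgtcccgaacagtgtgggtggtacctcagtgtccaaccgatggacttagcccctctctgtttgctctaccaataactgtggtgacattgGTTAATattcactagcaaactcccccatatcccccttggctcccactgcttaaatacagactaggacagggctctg
Scel: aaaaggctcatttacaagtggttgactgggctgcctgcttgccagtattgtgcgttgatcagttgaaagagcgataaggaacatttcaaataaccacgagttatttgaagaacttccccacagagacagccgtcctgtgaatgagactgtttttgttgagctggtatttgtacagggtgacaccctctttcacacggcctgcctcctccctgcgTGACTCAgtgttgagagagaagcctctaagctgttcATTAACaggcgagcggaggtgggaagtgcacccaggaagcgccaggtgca
Diras2: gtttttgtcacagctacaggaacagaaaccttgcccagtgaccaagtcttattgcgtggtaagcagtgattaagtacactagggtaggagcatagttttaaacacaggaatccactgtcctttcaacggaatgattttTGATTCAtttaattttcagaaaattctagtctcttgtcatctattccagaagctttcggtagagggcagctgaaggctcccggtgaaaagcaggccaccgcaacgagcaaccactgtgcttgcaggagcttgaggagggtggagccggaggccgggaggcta

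The homozygous-only regions made up 15.7% (Wilson 95% interval 15.3 to 16.1, counting error only) of the 32635 regions with a homozygous peak. The same rule gave 3462 heterozygous-only regions, 11.8% of that library's regions, and 9880 wild-type-only regions, 24.8%. The homozygous share thus lay between the other two, and the wild-type library held the most regions of its own. In the 19504 regions found in all 3 libraries, the summit pile-up of the homozygous peak was 0.02 log2 above the wild-type one and 0.44 log2 above the heterozygous one at the median. The lowest background solved from a list's folds and p-values, a stand-in for depth, was 2.17 reads per position in wild type, 1.73 in heterozygous and 1.73 in homozygous. The part of these differences in the counts was not tested.

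Most of these regions were not at the edge of the 1 kb rule. The nearest wild-type or heterozygous peak was 15921 bp away at the median, over 10 kb away for 3288 regions and over 50 kb away for 1008. Without the distance rule there were 6797 regions, of which 1671 had another library's peak within 1 kb. Just inside the limit lay a region near Tulp4 at 1005 bp (fold enrichment 5.34) and one near Baalc at 1007 bp (6.37). Just outside lay one near Bcl2l1 at 994 bp (2.64) and one near Ets1 at 991 bp (5.62). The folds on both sides overlapped.

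Homozygous-only regions were narrow and weak beside the other homozygous regions. Their median width was 330 bp (quartiles 249 and 448, highest 1882), against 708 bp in the other 27509 homozygous regions and 819 bp in regions found in all 3 libraries. Heterozygous-only and wild-type-only regions were 329 and 359 bp wide. The authors' fold enrichment over local background had a median of 5.39, and the summit pile-up a median of 25 reads (10 to 188), against 64 in the other homozygous regions. A total of 521 regions, 10.2%, reached the median −log10 q of the homozygous list, 22.6. Neighbouring peaks often made up a broader stretch: 2117 regions, 41.3%, lay within 1 kb of another of their kind, and joining these left 4037 stretches. The figure was 40.8% for heterozygous-only and 45.3% for wild-type-only regions.

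The stronger a homozygous peak, the less often it was homozygous-only. Each list was divided into 10 equal bins by −log10 q. In the weakest bin of the homozygous list 39.3% of peaks were homozygous-only, in the fifth 13.9%, and in the strongest 0.146%, which is 5 of 3429 peaks. The wild-type list ran from 53.6% to 0.289% and the heterozygous list from 29.7% to 0.478%. The pattern was thus shared by the 3 lists, and one-library peaks lay mostly in the weaker bins of their list. Most homozygous-only peaks were still above the calling limit, with a median −log10 q of 10.4 where the lowest of the list was 3.16.

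**Figure D1:**
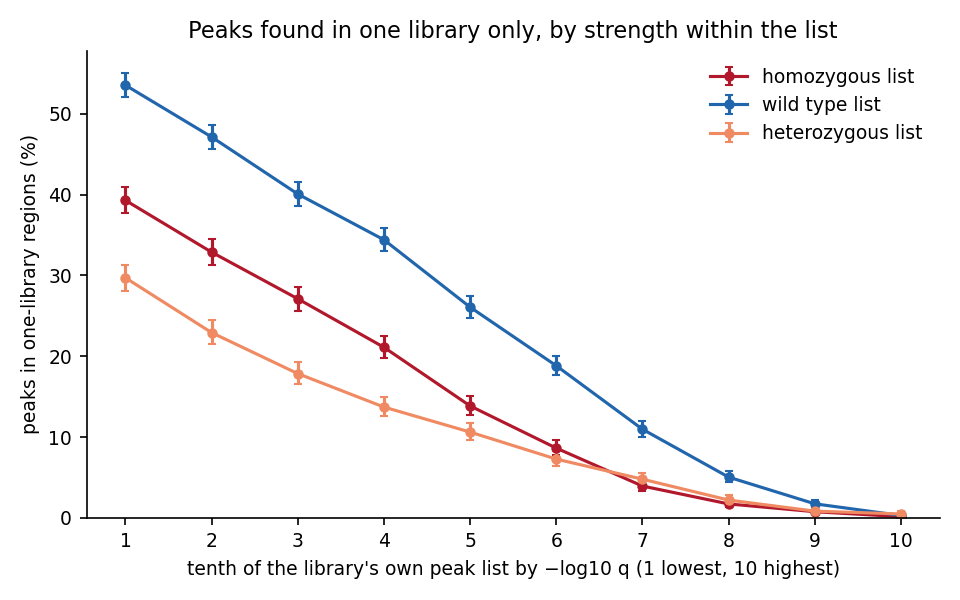
Share of each library's peaks that fell in regions of that library alone (y axis, percent, with Wilson 95% intervals) by 10 equal bins of its own list ranked on −log10 q (x axis, 1 lowest to 10 highest). The homozygous line runs from 39.3% to 0.146%, between the wild-type and heterozygous lines in the weaker bins.

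Position in the genome was not used by the rule. Of the 5126 regions, 2662 (51.9%, interval 50.6 to 53.3) lay inside a gene, 2013 (39.3%, 37.9 to 40.6) were intergenic, 301 (5.87%, 5.26 to 6.55) lay within 1 kb of a RefSeq gene start, and 150 (2.93%) within 1 kb of another gene end. Some protein-coding starts, such as that of Cdh1, had no promoter window and were counted as another gene end. A gene start or end of either kind was near 8.80%, against 54.1% of the other homozygous regions and 67.1% of regions found in all 3 libraries. Heterozygous-only and wild-type-only regions resembled them in this, with 10.3% and 11.3%. Homozygous-only regions lay inside genes more often than heterozygous-only ones, of which 41.2% (39.6 to 42.9) did, while wild-type-only regions, with 49.7% (48.7 to 50.7), were closer to them. For 989 regions, 19.3%, no protein-coding gene end lay within 100 kb.

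**Figure D2:**
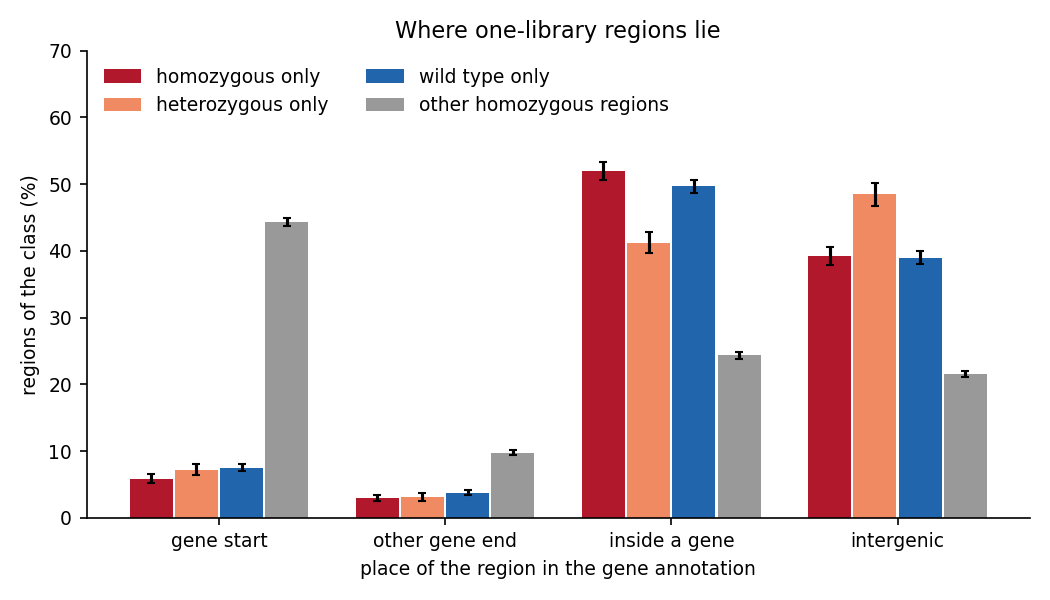
Percent of regions of each class (y axis, bars with Wilson 95% intervals) at a gene start, at another gene end, inside a gene or in intergenic sequence (x axis). Gene starts hold 5.87% of homozygous-only regions and 44.3% of the other homozygous regions.

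Each region was assigned to the protein-coding gene with the nearest end within 100 kb, which does not show that it regulates that gene. This gave 2489 of 21887 genes with at least 1 homozygous-only region, 11.4%. Of the 11265 genes with some region in all 3 libraries, 1871, or 16.6%, had one. Most had few: 1488 genes had 1 region, 629 had 2, 345 had 3 to 5 and 27 had 6 or more. These genes were long, with a median of 49.0 kb against 17.2 kb over all genes. The gene sets of the libraries overlapped in part: 901 genes, 36.2% of those with a homozygous-only region and 21.8% of those with a wild-type-only region, had both kinds. For heterozygous-only regions this was 388 genes, 15.6% and 23.8%. All genes with a wild-type-only or a heterozygous-only region made up 18.9% and 7.45% of the annotation.

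Pappa2, which encodes a metalloproteinase that cleaves insulin-like growth factor binding proteins, had 11 homozygous-only regions in 6 stretches, tied with Lrrc4 for the most by nearest gene end. By the gene that holds the region instead, Snd1 came first with 14, and Pappa2 was tied with Rad51b and Ttc28 at 11. Its totals were 2 wild-type, 2 heterozygous and 13 homozygous regions. A run of 4 neighbouring regions lay 369 to 2845 bp from its start (chr1:158954520-158957806), with folds of 2.02 to 2.79, and the strongest lay upstream of it (chr1:159016706-159017215, fold 6.92, −log10 q 39.9). Lrrc4, which encodes a synaptic adhesion protein, also had 11, against 4 wild-type and 4 heterozygous regions. All 11 lay inside Snd1, the larger gene around it, whose product is a nuclease and coactivator, so that their nearest end and their holding gene differ.

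Rbfox2, a splicing factor gene, had 8 homozygous-only regions beside 14 wild-type, 7 heterozygous and 20 homozygous regions in all. Bach2, which encodes a transcriptional repressor of lymphocytes, had 8 (9, 8 and 19 in all), and Nbea, which encodes a scaffold protein of vesicle traffic, had 8 (3, 3 and 12). In Chst11, which encodes a chondroitin sulfotransferase, 7 regions lay inside the gene, and the totals were 8, 1 and 16. Its strongest region, chr10:83182183-83182715, had a fold of 6.91 and −log10 q of 64.7. Utrn, which encodes utrophin, and Lingo1, a neuronal receptor component, had 7 each, and their totals of 10, 5 and 18 and of 12, 15 and 15 show that other libraries were also acetylated there. Mmd and Trim2, which encodes a ubiquitin ligase, had 7 each (1, 3 and 9, and 8, 4 and 11 in all).

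Il7, which encodes the lymphoid growth factor interleukin 7, had 7 regions and no region of another library. The broadest of all homozygous-only regions, 1882 bp, covered one end of this gene (chr3:7611883-7613764), with a fold of 4.21 and a pile-up of 173 reads. Another 4 of its regions followed each other at 16336 to 18558 bp from that end. The absence of peaks in the other libraries was wide here, since the nearest lay 107824 bp away. Rad51b, a recombination repair gene, had 7 regions against totals of 1, 0 and 8, the strongest at chr12:79887474-79888502 with −log10 q of 53.9.

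In all, 361 genes, 14.5% of the 2489, had a homozygous-only region and no wild-type or heterozygous region. They were 4.53% of the 7964 genes without a region of those 2 libraries. After Il7 came Adamts16, a secreted metalloproteinase gene, with 6 regions, all inside the gene, and Akr1c18, which encodes the 20-alpha-hydroxysteroid dehydrogenase that inactivates progesterone, with 5. Zfp36l1, P4ha3, Gm765, Gm15501, Calhm5, Myh2, Asb5, Ces1d, T, Serpina1e, Cmya5 and Stc2 had 4 each.

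Clusters, meaning at least 3 homozygous-only regions each at most 12500 bp from the next, numbered 168 and held 561 regions, 10.9%. The share in clusters was 10.8% of heterozygous-only and 15.0% of wild-type-only regions. Most clusters were small: 126 had 3 regions, 30 had 4, 9 had 5 and 3 had 6.

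The cluster with the greatest summed width lay at Oxtr (chr6:112487626-112511091), with 6 regions over 23466 bp. Among them 3 lay at the gene start, with folds of only 2.02 to 2.19 but pile-ups of 100 to 109 reads, over a high local background. The other three lay upstream, up to a fold of 5.47. This locus was acetylated in the other libraries too, with 5 wild-type and 6 heterozygous regions assigned to Oxtr against 12 homozygous ones, and 3 of their peaks lay between the regions of the cluster.

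Cdh1, the E-cadherin gene of epithelial junctions, held a cluster of 6 regions at its start and in the first part of the gene (chr8:106602882-106620603). No peak of another library lay between them. Their folds ran from 3.20 to 5.69, and the strongest, chr8:106603420-106603928, had a −log10 q of 20.6. Regions assigned to Cdh1 numbered 1 in wild type, 1 in heterozygous and 8 in homozygous. The third cluster of 6 lay inside Iqgap2, a scaffold protein gene whose span also takes in F2rl2 (chr13:95782627-95811487), with folds of 2.75 to 5.01 and no peak of another library between. Clusters of 5 followed inside Chst11 and in Synm, which encodes the intermediate filament protein synemin.

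**Figure D3:**
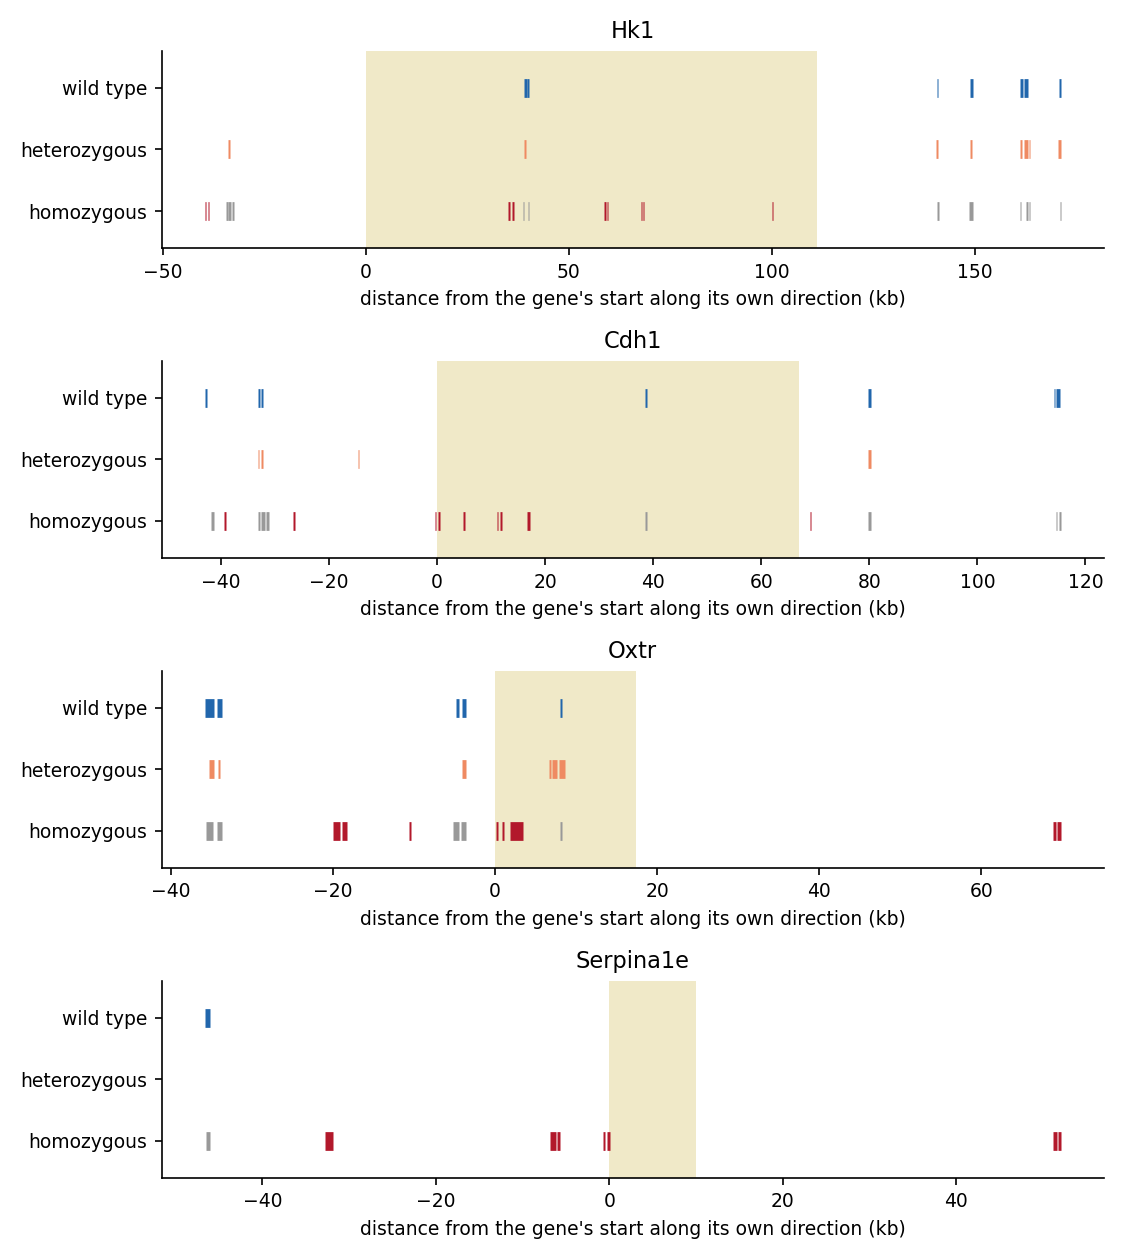
Peaks of each library (rows) around Hk1, Cdh1, Oxtr and Serpina1e, by distance from the gene's start along its direction (x axis, kb), with the gene's span shaded. Blue is wild type, orange heterozygous, grey other homozygous peaks and red homozygous-only regions. At Cdh1 a group of them sits in the first part of the gene where the rows above are empty, and others lie outside the gene.

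Beta cells keep a set of genes silent that most other tissues express, often called disallowed genes, such as Hk1, a hexokinase with high affinity for glucose, and Slc16a1, the monocarboxylate transporter MCT1. Of 16 such genes, 8 had a homozygous-only region. The other eight, Acot7, Cat, Igfbp4, Ldha, Mgst1, Nfib, Pdgfra and Yap1, had 17 wild-type, 24 heterozygous and 6 homozygous regions together, so that the list did not go one way. Nfib and Pdgfra, with 1, 6 and 0 regions each, were acetylated mostly in the heterozygous library. Of the 55 homozygous regions assigned to the list, 29 were homozygous-only, 52.7% (interval 39.8 to 65.3), against 14.2% of the 29196 homozygous regions assigned to any gene. Without Hk1 it was 22 of 46, 47.8% (34.1 to 61.9), and the 29 regions formed 17 stretches. One-library regions of the other lists were found here too: 6 of the 16 genes had a heterozygous-only region, as did 7.45% of all genes, and 5 had a wild-type-only region, as did 18.9% of all genes. The list's regions numbered 34 in wild type and 49 in heterozygous, and 2 of the 29 reached the median strength of the homozygous list. With the 3 lists shortened to equal length by −log10 q, the list had 21, which overlapped 21 of the 29, and Oat had 0 in place of 4.

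Within this list, Hk1 had 2 wild-type, 1 heterozygous and 9 homozygous regions, and 7 of the last were homozygous-only, all inside the gene. Their folds ran from 2.69 to 8.19, with the highest at chr10:62311892-62312211. Slc16a1 had 5 homozygous-only regions, but also 10 wild-type and 9 heterozygous regions. Its strongest lay 2306 bp from a gene end (chr3:104660768-104661224, fold 7.07, −log10 q 38.7). Cxcl12, a chemokine gene, had 0, 2 and 6 regions, of which 5 were homozygous-only, all intergenic and at least 53977 bp and at most 91105 bp from the gene. Zfp36l1, which encodes an RNA-binding protein that promotes mRNA decay, had 0, 0 and 4. Its strongest region, chr12:80103230-80103791, had a fold of 9.68 and −log10 q of 45.2. Oat, ornithine aminotransferase, had 4 weak homozygous-only regions, Maf 2, and Smad3 and Dapp1 1 each. Thus wild-type regions were at 0 for Cxcl12, Zfp36l1, Oat, Maf and Dapp1, but not for Hk1, Slc16a1 or Smad3. Of the genes at 0, all but Zfp36l1 had 2 heterozygous regions each. The totals were 0, 2 and 6 for Oat, 0, 2 and 5 for Maf and 0, 2 and 4 for Dapp1.

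**Figure D4:**
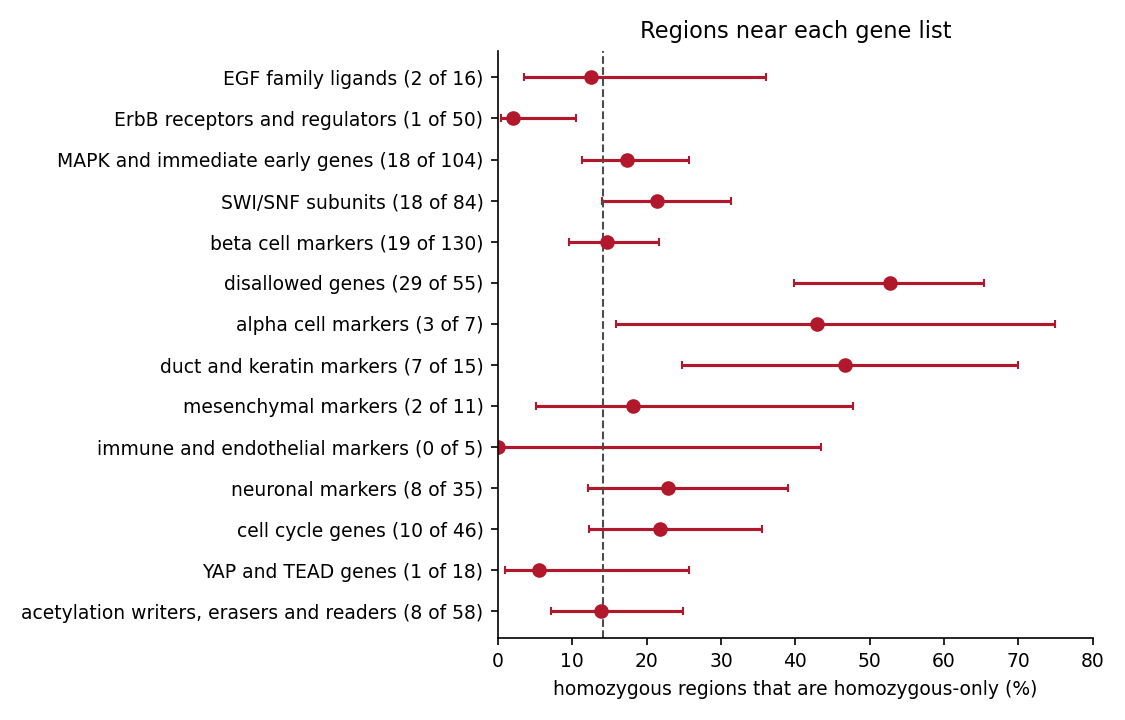
Percent of the homozygous regions assigned to each gene list that were homozygous-only (x axis, points with Wilson 95% intervals), with the counts behind each beside its name and the share over all genes, 14.2%, as a dashed line. Lists with 0 homozygous regions are not drawn, and the disallowed genes stand at 52.7%.

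Beta cell genes had 19 homozygous-only regions at 10 of 28 genes, 14.6% of their 130 homozygous regions, close to the 14.2% over all genes. Slc2a2, the glucose transporter GLUT2 of mouse beta cells, had 3 (5 wild-type, 1 heterozygous and 8 homozygous regions in all), and Abcc8, the sulfonylurea receptor, had 3 with folds of 2.39 to 2.91. Ucn3, which encodes urocortin 3, a hormone of mature beta cells, had 0, 0 and 2 regions. Both lay inside Ucn3, and chr13:3941893-3942355 had a fold of 6.87. Beside Pdx1, a defining beta cell transcription factor, 2 regions had high pile-ups of 188 and 172 reads but folds of 1.5 and 1.70. The remaining 6 genes were Pcsk1, Scg2, Foxa2, Cpe, Nkx6-1 and Chga, with 1 or 2 regions each.

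Among markers of other cells, Gcg had 0 wild-type, 1 heterozygous and 3 homozygous regions, and all 3 were homozygous-only. One lay 32 bp from the Gcg start (fold 4.34, −log10 q 7.33), and a stronger one (chr2:62455879-62456675, fold 7.53, −log10 q 22.7) lay 17855 bp from the gene, at the start of the long noncoding gene Gm13561. The other 5 alpha cell markers had none. Cdh1 held all 7 homozygous-only regions of the 9 duct and keratin genes, and Cdh2, N-cadherin, both of those of the 8 mesenchymal genes. The duct and keratin list as a whole had 10, 12 and 15 regions, of which Cdh1 had 1, 1 and 8. No other gene of that list had more homozygous than wild-type regions. Krt7 had 4, 4 and 3 and Krt18 had 2, 2 and 1, so that Cdh1 does not stand for the list. Cdh2 had 6 wild-type, 1 heterozygous and 5 homozygous regions in all. The mesenchymal list as a whole had 23, 8 and 11, among them Zeb2 with 8, 3 and 1, so that Cdh2 does not stand for it. Neuronal markers, which beta cells share in part, had 8 at 4 of 6 genes, with Elavl4 and Syt1 at 3 each and Tubb3 and Snap25 at 1 each. These 8 were 22.9% of the list's 35 homozygous regions (12.1 to 39.0), an interval that takes in the 14.2% over all genes. Immune and endothelial genes had 0 among 5 homozygous regions. Delta, PP and epsilon markers and acinar markers had no homozygous region of any kind, so a count for them says nothing. In a bulk library, fewer cells with the mark and less of the mark per cell cannot be told apart.

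The SWI/SNF subunit genes had 18 homozygous-only regions at 8 of 28 genes, 21.4% of their 84 homozygous regions (14.0 to 31.3). The interval takes in the 14.2% over all genes, and the 18 regions formed 13 stretches. Arid1b, the paralog of the deleted subunit, had 5, beside 11 wild-type, 9 heterozygous and 16 homozygous regions in all. The strongest lay 53092 bp from the gene (chr17:4939917-4941205), with a fold of 6.78, a −log10 q of 57.8 and a pile-up of 123 reads, and another pair inside the gene had −log10 q of 25.7 and 28.2. Smarca2, one of the ATPases of the complex, had 4, the other ATPase gene Smarca4 had 2, and Dpf1 and Smarcd1 had 2 each. Arid1a itself had 1, inside the gene (chr4:133735623-133736122, fold 4.95), and its 3 regions at the gene start were called in all 3 libraries. Genes for acetylation writers, erasers and readers had 8 among 58 homozygous regions, 13.8%, close to the share over all genes. The deacetylase genes Hdac7 and Hdac4 had 4 and 3 and the acetyltransferase gene Kat6a had 1, and the other 17 of 20 had none.

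Of the EGF pathway lists, the receptor list was low and the other two were near the share over all genes. EGF ligands had 2 homozygous-only regions at 2 of 11 genes, a share of their 16 homozygous regions with an interval of 3.50 to 36.0%, which takes in the 14.2% over all genes: Btc, betacellulin, with 1 (4 wild-type, 0 heterozygous and 2 homozygous regions) and Nrg3, a neuregulin, with 1 (0, 1 and 2). The ErbB receptors and their regulators had 1 among 50 homozygous regions, 2.00% (0.354 to 10.5), in Cbl, the ubiquitin ligase that takes EGF receptors to degradation. The interval lies under the 14.2% over all genes, and it covers counting error only. The MAPK and immediate early genes downstream had 18 at 8 of 26 genes, 17.3% of 104 regions (11.2 to 25.7). They were Phlda1 and Fos with 4 each, Dusp5, a phosphatase gene of nuclear ERK, with 3, Spry4, a feedback inhibitor gene of the pathway, and Ier3 with 2 each, and Etv4, Dusp4 and Etv1 with 1 each. The 4 at Fos lay together 46312 to 50230 bp from it (folds 2.86 to 4.20). Spry4 had 0, 1 and 3 regions in all, and both of its homozygous-only regions lay inside the gene. YAP and TEAD genes had 1 among 18 homozygous regions, 5.56% (0.988 to 25.8), at Tead1.

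Cell cycle genes had 10 regions at 6 of 17 genes, 21.7% of their 46 homozygous regions (12.3 to 35.6), an interval that takes in the 14.2% over all genes. Ccnd1, cyclin D1, had 2, one that touched a gene end (fold 5.36) and the other 426 bp away (fold 6.61). Ccnd2, cyclin D2, the main D-type cyclin of mouse beta cells, had 3 with folds of 3.85 to 5.13, and had 0 with lists of equal length, where the cell cycle count went from 10 to 6. Cdkn2b, an inhibitor gene of the cycle, had 2, and Cdk6, E2f3 and Mki67 had 1 each.

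At gene starts, the strongest region by −log10 q lay near Pla2g5, a secreted phospholipase gene (chr4:138864156-138865167), with a fold of 8.63 and −log10 q of 91.5. It was followed by a region at the long noncoding gene Gm30944 (fold 8.64, −log10 q 84.5) and one over the Bcl2l14 promoter printed above (chr6:134413881-134414973, fold 12.2, −log10 q 84.1). Pld1 followed the noncoding Gm32359, with a fold of 6.59 and −log10 q of 52.4, and its promoter lay wholly within the region. The next were Gm39247, 8430426J06Rik, A730020M07Rik, Gm12059 and Gm33467, so that 7 of the 10 strongest lay at starts of genes known only by a provisional name.

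The homozygous-only regions overlapped 150 of 32851 promoter windows (0.457%) of 145 genes, and 36.0% of the windows belonged to long noncoding genes, as did 35.3% of all windows. Their GC content had a median of 52.7%, and the ratio of observed to expected CG pairs a median of 0.396, against 0.816 in the 10592 windows under regions of all 3 libraries and 0.226 in the 20435 windows with no region. They thus lay between promoters acetylated in all 3 libraries and unmarked ones, near heterozygous-only (0.402) and below wild-type-only windows (0.518). All 32851 windows together had a GC content of 52.7% and a ratio of 0.384, practically the same values. A ratio under 0.6 was found in 68.7% (60.9 to 75.5), near the 64.2% of all windows, as in the Bcl2l14 (0.366) and Gcg (0.423) sequences above, while Oxtr (0.658) and Pld1 (0.877) were above it.

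The windows were searched on both strands for 11 short motifs. The AP-1 motif TGANTCA stood in 20 of 150, 13.3% (8.80 to 19.7), against 3.98% of windows under shared regions and 7.81% of all windows. Heterozygous-only windows had it in 15.1% (9.79 to 22.6) and wild-type-only ones in 7.38% (5.25 to 10.3). The HNF1 half-site GTTAAT stood in 12.7% (8.26 to 18.9), against 3.62% under shared regions, 7.10% of all, 6.72% of heterozygous-only and 4.76% of wild-type-only windows. Without the 5 Serpina1 windows these shares were 11.03% (6.91 to 17.2) and 9.66% (5.84 to 15.6), and both intervals then took in the share of all windows. Windows with no region had AP-1 in 9.82% and the HNF1 half-site in 8.95%, which the intervals over all 150 windows took in. The pentamer CCAAT stood in 38.0% (30.6 to 46.0), like the 37.4% of all windows, while heterozygous-only windows had 17.6% (11.8 to 25.5). GC boxes (GGGCGG) stood in 38.7% (31.2 to 46.7), near the 35.7% of all windows, against 68.8% under shared regions. The ETS core CCGGAA stood in 6.67% (3.66 to 11.8), against 32.2% under shared regions and 14.9% of all windows. In windows with no region it stood in 6.20%. The cyclic AMP element TGACGTCA was in 0 of 150 windows, which allows a share of up to 2.00%. The remaining motifs were TATAAA (12 of 150 windows against 13.6% of all windows), the FOXA motif TGTTTAC (2.67% against 3.65%), the RFX half-site GTTGCC (7.33% against 12.51%), the TEAD motif GGAATG (10.0% against 14.7%) and the E-box CAGCTG (17.3% against 16.3%). No motif searched contains another, and a match is a description of the sequence, not a bound site.

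Several marked promoters belonged to genes of named function. Among them were Serpina3n, a secreted protease inhibitor gene (fold 7.77, −log10 q 41.3), 1 of the starts of Gnas, the stimulatory G protein gene (5.75, 42.1), Hopx (10.2, 33.0), Pdyn, the prodynorphin gene (3.12, 26.8), Vegfc, a lymphatic growth factor gene (8.81, 24.7), and Stc2, stanniocalcin 2 (4.50, 21.6), named here after their values were seen. Toll-like receptor genes Tlr2 (8.59, 17.9) and Tlr5 (3.76, 5.23), and Ppargc1a, a coactivator gene of mitochondrial biogenesis (6.58, 9.84), had weaker ones.

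A run of Serpina genes on chromosome 12 stood out by number, and was singled out after its values were seen. It holds the alpha-1 antitrypsin genes Serpina1a to Serpina1e and other Serpina genes. From the start of Serpina1b to the end of Serpina3n (chr12:103728156-104414334) there were 25 merged regions, of which 25 had a homozygous peak, 2 a wild-type and 0 a heterozygous peak, and 22 were homozygous-only. They covered or adjoined the starts of Serpina1a, Serpina1b, Serpina1c, Serpina1d, Serpina1e, Serpina11, Serpina3i and Serpina3n. At the Serpina1 starts, the overlapping regions had folds of 6.02 in Serpina1b, 4.97 in Serpina1d, 5.94 in Serpina1a, 4.21 in Serpina1c and 4.60 in Serpina1e. These genes are near-identical copies, with unbroken shared runs of 59 to 119 bases between their promoter windows, so which copy the reads came from is uncertain. The stretch of chromosome 12 beyond 100 Mb also had taller shared peaks in the homozygous library, by 0.46 log2 against wild type and 0.47 against heterozygous, relative to all shared regions. There 90 of 331 homozygous regions, 27.2% (22.7 to 32.2), were homozygous-only. The part of this in the Serpina regions, and in those at Lgmn, Evl, Degs2 and Chga on the same stretch, was not tested. Between 60 and 100 Mb, which holds Rad51b, Zfp36l1 and Fos, the values were 0.17 and 0.31 log2 and 20.5%.

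By fold enrichment among regions at or above the median −log10 q of the homozygous list, the first lay 11874 bp from Kif2a, a kinesin gene (chr13:107034229-107034790), with a fold of 18.6, a −log10 q of 95.9 and a pile-up of 104 reads. The next were near Gm7030 (fold 16.7) and 1393484 bp from the nearest gene, Slc10a2 (15.4). Inside Sh3kbp1, an adaptor gene of receptor endocytosis, one had a fold of 14.6. Slc16a11, a monocarboxylate transporter gene, had one 396 bp from its start (13.8). The rest, near Mmgt2, Ltbp3, Cabcoco1, Tbpl1 and Trim68, had folds of 12.8 to 13.8. The background behind 3 of these folds, at Slc10a2, Tbpl1 and Trim68, was the lowest of the list, 1.73 reads per position.

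Around microRNA genes, 58 of 1005 hairpins had a homozygous-only region within 10 kb, 8 within 1 kb and 2 were overlapped, Mir7028 and Mir330. No such count was made for the other region classes, so these numbers have no share to set beside them. Mir375, which makes an abundant islet microRNA, had 2 at 2008 and 7048 bp, with folds of 2.21 and 2.62. Mir146, known as a brake on inflammatory signalling, had 2 at 267 and 956 bp, with folds of 6.57 and 5.87. Mir375 and Mir146 were picked from the 58 after their values were seen.

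The homozygous-only share of a chromosome's homozygous regions ran from 10.96% on chromosome 11 and 11.4% on chromosome 2 to 20.7% on chromosome 12 (18.7 to 22.9), leaving out Y with 2 of 27. On these 3 chromosomes the heights at shared regions went the same way as the share. Relative to all shared regions, the homozygous summit against wild type was −0.35 log2 on chromosome 11, −0.21 on 2 and 0.21 on 12. Other chromosomes did not follow: chromosome 13, with a share of 19.6%, had −0.07, and chromosome 17, with 13.5%, had 0.11. Over 20 chromosomes, which share the 3 libraries and so are no independent samples, Pearson's r was 0.56 and Spearman's rho 0.31 for the ratio to wild type and 0.68 and 0.42 for that to heterozygous. Without chromosomes 11 and 12 these were 0.26 and 0.06, and 0.47 and 0.21. Leaving out chromosomes 2, 11 and 12, a choice made after seeing the data, left 4321 regions, 16.2% of the homozygous regions there.

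**Figure D5:**
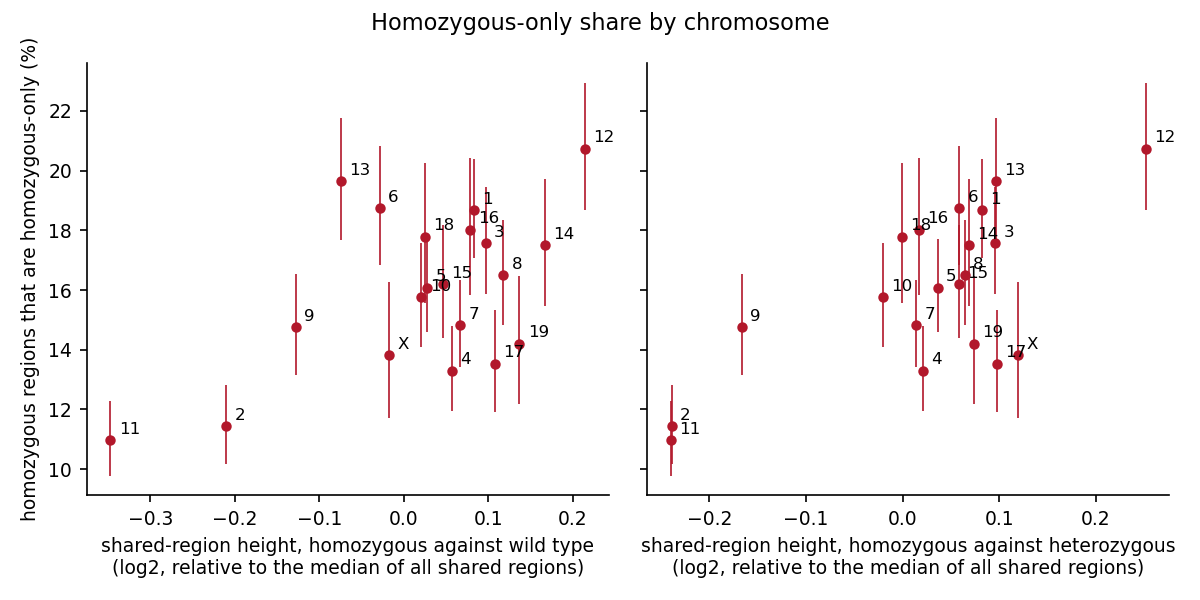
Percent of each chromosome's homozygous regions that were homozygous-only (y axis, with Wilson 95% intervals) against the median log2 height of shared regions in the homozygous library relative to wild type (left) or heterozygous (right). Chromosomes 11 and 2 are low on both axes and chromosome 12 is high on both.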

How the data were processed

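H3K27ac ChIP-seq peaks of 3 MIN6 clones were used, 1 library each of wild type, heterozygous and homozygous Arid1a knockout. Peaks were called per library by the authors with MACS2 on mm10 after bcl2fastq, per the submitters' processing notes. Aligner, control and calling threshold: not given in the sources used here. The deposited lists give each peak's score, its fold enrichment as a ratio over background, its −log10 p and −log10 q, and its summit position; fold and q are the authors' values for single peaks and were used within a list.

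Peaks were merged by an overlap of at least 1 bp or touching ends, with python 3.11.15, numpy 2.4.6, pandas 2.3.3 and scipy 1.17.1, and all 52938 regions were identical to those of bedtools 2.31.1. Figures were drawn with matplotlib 3.10.9. Summit pile-up and background were solved from fold and −log10 p, with 1 added to both in the ratio and a Poisson tail for p. The solution came within 0.001 of the deposited value for 34296 of 34298 peaks in the homozygous list, 31362 of 31365 in the heterozygous and 41488 of 41490 in the wild-type list. No read totals were used. The scripts were tested on simulated data. Shares have Wilson 95% intervals, for counting error only. Genes came from 21887 protein-coding genes and 32851 promoter windows of 27025 genes in RefSeq on GRCm38.p6. There was no window on chromosome 18, nor for some genes elsewhere, such as Cdh1, Il7 and Ccnd1. The start of a protein-coding gene without a window counts as a gene end, so shares at gene starts are lower bounds. The table gives no exons or UTRs, and no genome sequence was used.

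The members and lists were chosen with earlier results of these data known. The 16 lists have 226 entries, 225 distinct, all matched. Named were the 15 genes with most regions, 10 regions by fold (at or above the median q), 10 at gene starts by q, the 5 largest clusters, up to 4 genes per list, Arid1a and regions just inside and outside 1 kb; further names are said to be chosen after their values were seen, or are the rest of a small count. With 1 library per genotype no test was run.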

Additional observations from a re-analysis of the deposited data

How the results depend on the processing

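Requiring only that no other peak overlapped, the share of homozygous regions was 20.8%, with 12.7% at a gene start or end and a median width of 320 bp; with 5 kb of distance the share was 12.9%. With all lists at −log10 q of at least 10, the share was 15.0%, 10.4% lay at a gene start or end, 328 lay in clusters and the width was 419 bp. With the homozygous list alone at 10 or more, 2694 regions were left, 10.2% of the homozygous regions, near 1537 genes, with 9.61% at a gene start or end, 174 in clusters and a width of 405 bp. Lists of equal length, 31365 peaks each, gave 4986 regions, 3956 of them with the same start, 16.7% of the homozygous regions, with 9.81% at a gene start or end and a width of 369.5 bp. Without chromosomes 2, 11 and 12, chosen after seeing the data, the share was 16.2%. Genes numbered 1612 with the nearest end within 20 kb. The share at a gene start or end was 12.6% within 2 kb, and 269 regions were in clusters at most 5 kb apart. The cause of these shifts was not tested, beyond the wider or narrower rule that makes each.

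Another 34 values of these results stayed within 1.5 times the count or within the interval of the value reported, among them all those with a threshold of 5 and with presence judged by the distance of summits. Of 32 counts per gene list, 30 stayed within 1.5 times: cell cycle genes went from 10 to 6 with lists of equal length, and ErbB genes from 1 to 2 when the gene holding a region came first. No paired analysis was possible because each genotype had 1 library. For the same reason no leave-one-out value exists, and clone, library and genotype cannot be told apart. Peaks under the calling limit are not listed, so a region without a peak may still carry the mark below it.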
